A study of Homo sapiens with 6 samples.

Results

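The 10 genes described here are targets of p53 and were taken by gene symbol from a named set of CDKN1A, MDM2, BTG2, GDF15, SESN1, TP53INP1, FAS, ZMAT3, RRM2B and FDXR. All 10 were found among the 62710 genes of the count table, and all 10 passed the filter on low counts that left 16877 genes to test. Polyadenylated RNA was sequenced from MHCC97-H, an established human hepatocellular carcinoma line that the labels give as wild type, in 3 groups of 2 libraries. One group received no treatment, one received chloroquine at 40 µM and one received melatonin at 0.2 mM, and each is labelled with 16 h. The submitters describe chloroquine as blocking autophagy and melatonin as blocking endoplasmic reticulum stress, and the study asked how the balance of these processes bears on transcription. All groups share one line and one culture medium, the untreated cells are not described as having received a solvent, and nothing in the labels ties the 2 libraries of a group to separate cultures. The p-values therefore measure the spread between these libraries, which may be technical.

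p53 is a transcription factor that is held low by the ubiquitin ligase MDM2 and is stabilised by DNA damage and other stress. It binds DNA as a tetramer, at a pair of decameric half-sites, and switches on genes that halt the cell cycle, repair DNA, limit oxidative damage or start apoptosis. Many of its targets also answer to other factors, among them those of the integrated stress response, so a target's transcript level is not a measure of p53 activity. p53 protein and its binding to DNA were not analysed here.

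Stretches next to the starts of the members are shown because p53 acts on such genes through sites in their DNA. RefSeq promoter sequence (GRCh38.p14) was used for 8 of the 10 symbols, with 17 windows of the 250 bases before an annotated start. RRM2B and TP53INP1 were not part of the search, so nothing is said here of motifs before their starts. The 17 windows were searched on both strands for the p53 response element half-site and for paired half-sites. A pair was allowed at most 2 mismatches in all and a spacer of at most 13 bases. The C and G of the core had to be present in each half-site of a pair, and only the best pair of a window was kept. A pair lay in 4 windows, which belong to 3 members, and a half-site without mismatch lay in 3 windows. Over 35116 promoters of the same length, 2.49% held a pair and 5.57% a half-site. TGATGCAA, a motif of the stress factors ATF4 and CHOP, lay in 0 of the 17 windows and in 0.772% of all promoters. Capitals mark the matched bases in the following stretches, each written 5′ to 3′ on the strand of its gene.

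MDM2, before an inner start, paired half-sites with no spacer (chr12:68808893-68808972, plus strand, intronic): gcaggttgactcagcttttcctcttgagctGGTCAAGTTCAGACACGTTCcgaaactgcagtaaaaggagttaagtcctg
FAS, before the second listed start, paired half-sites with no spacer (chr10:88991304-88991333, plus strand, within an annotated exon): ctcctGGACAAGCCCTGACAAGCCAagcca
SESN1, before the third listed start, half-site (chr6:109008998-109009067, minus strand, outside exons): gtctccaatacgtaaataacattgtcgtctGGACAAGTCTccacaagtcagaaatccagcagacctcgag
FDXR, before the first listed start, paired half-sites with a spacer of 10 bases (chr17:74872996-74873025, minus strand, within an annotated exon): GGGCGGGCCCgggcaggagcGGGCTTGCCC

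The MDM2 stretch lies in the windows of both inner starts, which overlap, and the FAS and FDXR stretches also hold a half-site without mismatch. No match lay in the windows of CDKN1A, BTG2, ZMAT3 and GDF15, and matches and their absence both occur among members called as changed. The known p53 sites of CDKN1A lie further upstream than this window. The exon-free stretches of CDKN1A and BTG2 are given for comparison.

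CDKN1A (chr6:36678464-36678657, plus strand): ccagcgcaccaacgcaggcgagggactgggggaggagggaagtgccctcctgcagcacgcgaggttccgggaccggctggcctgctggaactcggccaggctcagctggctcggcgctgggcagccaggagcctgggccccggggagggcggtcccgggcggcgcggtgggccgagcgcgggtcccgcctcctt
BTG2 (chr1:203305269-203305490, plus strand): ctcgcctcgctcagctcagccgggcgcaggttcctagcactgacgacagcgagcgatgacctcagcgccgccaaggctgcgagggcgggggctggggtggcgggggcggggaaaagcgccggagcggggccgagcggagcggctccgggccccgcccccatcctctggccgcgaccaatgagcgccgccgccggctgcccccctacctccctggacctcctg

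A match is a run of letters and not a measured site, and no match says only that these letters are not in the window. Counts per gene do not tell which start the reads came from. Both windows are rich in G and C, with 76.4% GC in that of CDKN1A and 74.8% in that of BTG2.

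Library totals lay between 15993730 and 23311452 counts. Levels are given as CPM, counts normalised for library total and TMM factor. Calls were made with edgeR's quasi-likelihood test, at a p under 0.05 after Benjamini-Hochberg adjustment over all 16877 genes. A count of 0 allows up to 3 counts, which is 0.123 to 0.184 CPM and covers counting error only, and every member lay well above this. Of 10 hepatocyte markers, 9 stayed under 1 CPM in every library and APOB, TTR and FGB were at 0, while the ductal keratin KRT7 lay between 393 and 973 CPM. The summed level of 5 ductal markers was 936 to 992 CPM untreated, 793 to 795 with chloroquine and 407 to 414 with melatonin. This sum is nearly all KRT7, and the other 4 did not all move with it: EPCAM had 154 and 157 counts untreated and 271 and 222 with chloroquine. Fibroblast (14.1 to 18.9), leukocyte (4.25 to 8.03) and endothelial markers (3.08 to 6.86) summed to under 20 CPM in every library. The part of these markers in the results was not tested. Fewer cells of a type and less RNA per cell cannot be told apart in such bulk libraries.

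With chloroquine, 4 of the 10 targets fell, 1 rose and 5 were not called. The arrest genes CDKN1A and BTG2 fell by 0.71 and 0.75 on the log2 scale, FDXR by 0.57 and ZMAT3 by 0.33, and GDF15 rose by 0.43. Of all tested genes, 20.2% were called, 10.7% as lower and 9.54% as higher. The median log2 change of the members was -0.14 against 0.00 over all tested genes. The 2 groups did not overlap for 7 members, against 57.6% of all genes.

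With melatonin, RRM2B, FAS and SESN1 rose by 0.85, 0.28 and 0.23 on the log2 scale, ZMAT3 and FDXR fell by 0.35 and 0.37, and 5 members were not called. Melatonin moved 52.0% of all tested genes past the threshold, 25.5% as higher and 26.5% as lower, so that a count of 5 of 10 is at the background. The members' median was 0.04 against 0.01 over all genes. The groups did not overlap for 8 members, against 74.1% of all genes. With library totals in place of TMM factors the genes called with melatonin split into 5541 higher and 3434 lower, against 4307 and 4475. The comparisons with untreated cells share the untreated libraries and are set side by side as values only.

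Between the agents, 6 targets were lower with chloroquine than with melatonin, 1 was higher and 3 were not called. The lower ones were RRM2B (-0.83 on the log2 scale), BTG2 (-0.64), CDKN1A (-0.62), SESN1 (-0.37), FAS (-0.32) and TP53INP1 (-0.27), and GDF15 was higher by 0.43. FDXR was among those not called, at -0.21 (adjusted p = 0.174), but was called with offsets for GC content, at -0.32 (adjusted p = 0.0307). Its value ran from -0.40 to -0.02 when each library was left out. Of all genes, 47.0% were called in this comparison, 23.9% as higher with chloroquine and 23.1% as lower. With library totals this split was 2952 higher and 5177 lower, against 4041 and 3892. The members' median was -0.29, and their groups did not overlap for 8 of 10, against 71.8% of all genes.

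**Figure D1:**
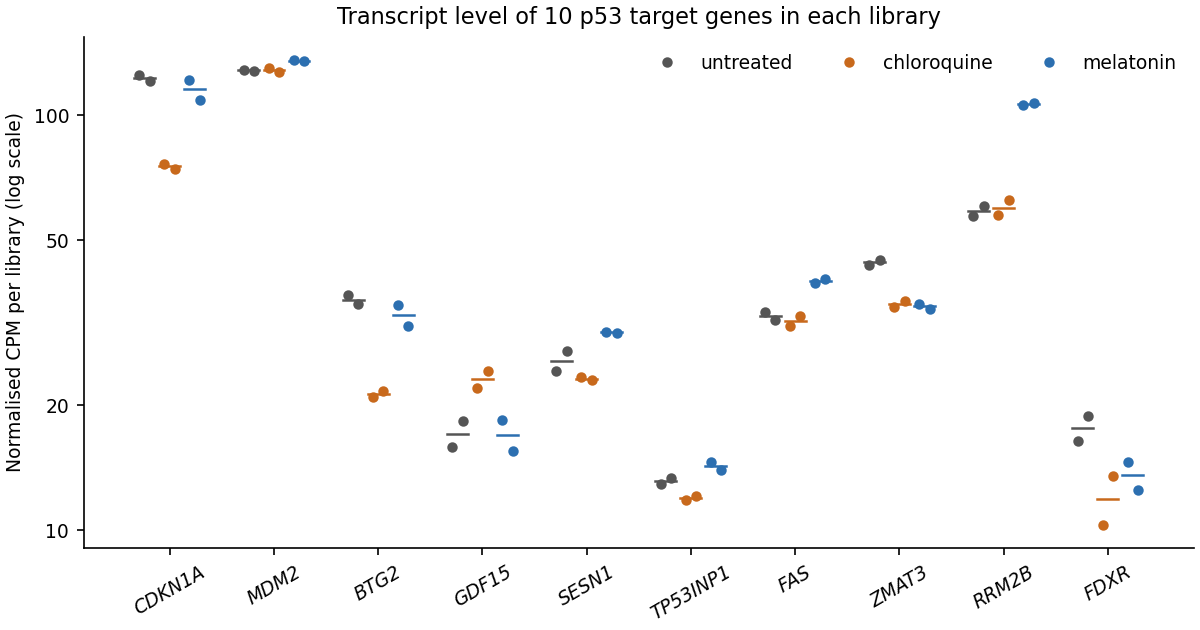
Normalised CPM (log axis) of the 10 p53 targets, with 1 point per library and a bar at the mean of the 2 libraries of a group. CDKN1A and BTG2 lay lowest with chloroquine, RRM2B lay highest with melatonin at 106 and 107 CPM, and MDM2 stayed between 127 and 136 CPM in all 6 libraries.

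**Figure D2:**
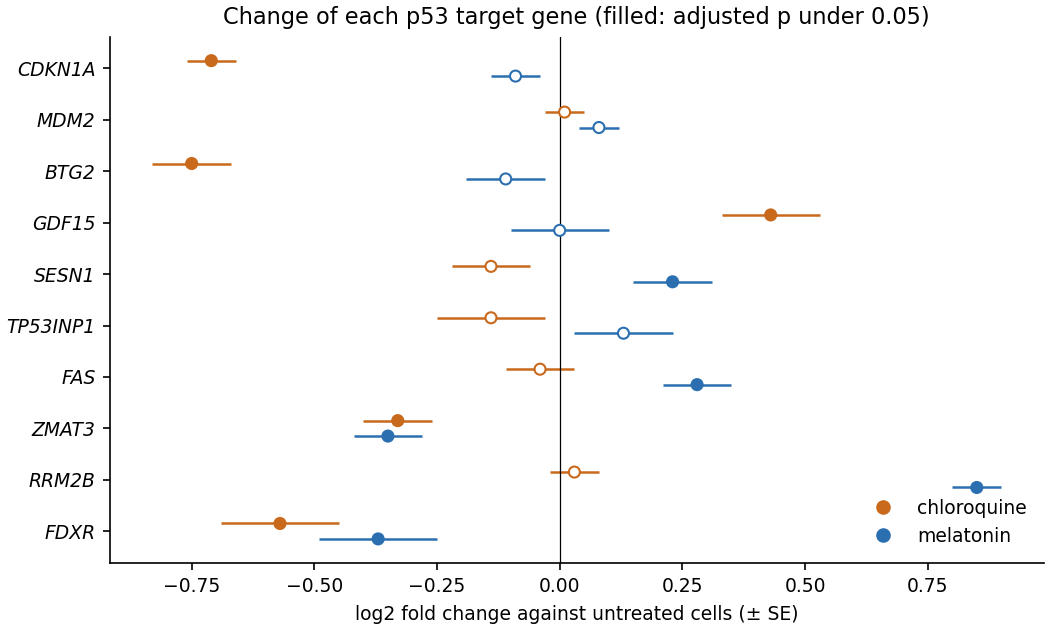
Log2 fold change of each target against untreated cells for chloroquine and for melatonin, with bars of 1 SE and filled points for adjusted p under 0.05. BTG2 and CDKN1A stand lowest with chloroquine and RRM2B highest with melatonin, while ZMAT3 and FDXR were lower with both.

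MDM2 (ENSG00000135679, chromosome 12, 68808176 to 68850686, GRCh38), the ubiquitin ligase that p53 induces and that in turn degrades p53, varied little between libraries. It stood at 129 and 128 CPM untreated, 130 and 127 with chloroquine and 136 and 135 with melatonin. The melatonin libraries were above all others by a few CPM, and the other 2 groups overlapped. Neither change was called, at 0.01 ± 0.04 with chloroquine (adjusted p = 0.942) and 0.08 ± 0.04 with melatonin (adjusted p = 0.114). The melatonin value was 0.10 and called with upper-quartile factors, 0.17 and called with library totals, and -0.07 and not called with offsets for GC content. CPM, a carboxypeptidase gene on the other strand, shares 133 exon bases with MDM2 (1% of them), and the strand setting of the counting is not given in the sources used here.

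CDKN1A (ENSG00000124762, chromosome 6, 36676460 to 36687339) encodes p21, the inhibitor of cyclin-dependent kinases that carries out much of the arrest by p53. It stood at 125 and 121 CPM in the untreated libraries, 76.5 and 74.4 with chloroquine and 122 and 109 with melatonin. Both chloroquine libraries were far below the other 4, while the melatonin libraries overlapped the untreated ones. From 123 ± 2.5 to 75.4 ± 1.48 CPM (SD, n = 2), the level was 1.63-fold lower with chloroquine, a change of -0.71 ± 0.05 (adjusted p = 2.09e-11). Leaving out each library in turn gave -0.73 to -0.68, and offsets for GC content gave -0.57. With melatonin the change of -0.09 ± 0.05 was not called (adjusted p = 0.124). That value has no settled sign: it was -0.17 and called without melatonin library 1, 0.13 and called with the GC offsets and 0.01 with library totals. The direct difference between the agents was -0.62 ± 0.05 (adjusted p = 2.84e-11), with a range of -0.71 to -0.54 over all settings.

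BTG2 (ENSG00000159388, chromosome 1, 203305491 to 203309602), an antiproliferative gene that slows entry into S phase, had 36.8 and 35.1 CPM untreated, 21 and 21.7 with chloroquine and 35 and 31.1 with melatonin. As for CDKN1A, the chloroquine libraries were clear of the others. The level was 1.68-fold lower with chloroquine, from 36 ± 1.2 to 21.4 ± 0.52 CPM (SD, n = 2), or -0.75 ± 0.08 (adjusted p = 1.15e-07). With melatonin it changed by -0.11 ± 0.08 (adjusted p = 0.225), without a call. The chloroquine value stayed between -0.79 and -0.72 over all settings.

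The pattern of CDKN1A over the 6 libraries was compared with that of 11266 genes by the root mean square difference of log2 CPM, each gene centred on its own mean. BTG2 was the nearest of all, at 0.0325. Next came PPDPF (0.0744), the cytochrome P450 gene CYP2S1 (0.0765), the long non-coding RNA NKILA (0.0944) and SELENOM, which encodes a selenoprotein of the endoplasmic reticulum (0.0999). These 4 genes changed by -0.73, -0.68, -0.60 and -0.70 with chloroquine and by -0.04, -0.04, 0.05 and -0.06 with melatonin. The next member by this measure was FDXR, at rank 412 (0.225), and the farthest was GDF15, at rank 10557 (0.528). Likeness over 6 libraries of 3 groups is a description of these libraries.

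**Figure D3:**
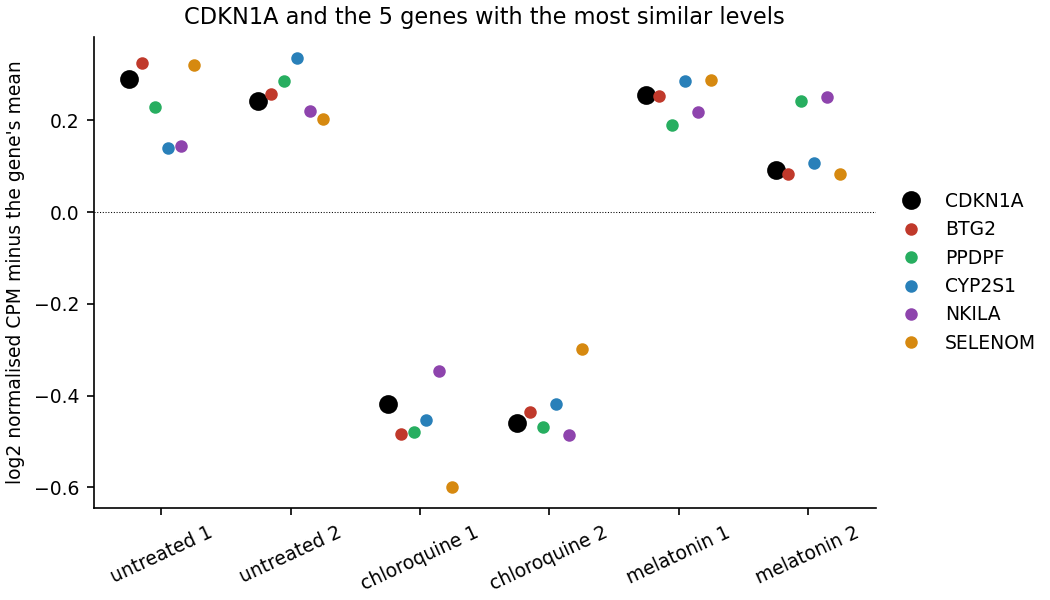
Log2 CPM of CDKN1A and the 5 genes nearest to it in each of the 6 libraries, centred on each gene's own mean. All 6 genes lie low in the chloroquine libraries only, and BTG2 follows CDKN1A most closely, also in the lower value of melatonin library 2.

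SESN1 (ENSG00000080546, chromosome 6, 108986437 to 109094819), a sestrin that restrains mTORC1 signalling, had 24.2 and 27 CPM untreated, 23.4 and 23 with chloroquine and 30.1 and 29.9 with melatonin. The 3 groups did not overlap, but the untreated libraries lay almost 3 CPM apart. The change with chloroquine was -0.14 ± 0.08 (adjusted p = 0.264). That with melatonin was 0.23 ± 0.08 (adjusted p = 0.0202) and was not called without untreated library 1 (0.14), without melatonin library 1 (0.22), by DESeq2 (0.22), with no count filter (0.21) or with the GC offsets (0.12, adjusted p = 0.212). The difference between the agents was firmer, at -0.37 ± 0.08 (adjusted p = 0.00041).

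TP53INP1 (ENSG00000164938, chromosome 8, 94925972 to 94949411), a p53-induced nuclear protein with roles in apoptosis and autophagy, was the least abundant member per kilobase. It had 12.9 and 13.4 CPM untreated, 11.8 and 12.1 with chloroquine and 14.6 and 14 with melatonin. The groups did not overlap, yet they lay close together. Changes of -0.14 ± 0.11 (adjusted p = 0.398) and 0.13 ± 0.10 (adjusted p = 0.33) were not called. The agents differed by -0.27 ± 0.10 (adjusted p = 0.034), a call that was lost without any one of the 4 treated libraries (-0.29 to -0.23), by DESeq2, with no count filter and with the GC offsets (-0.17).

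GDF15 (ENSG00000130513, chromosome 19, 18374731 to 18389176), a secreted stress cytokine of the TGF-beta superfamily that the integrated stress response induces too, was the only member called as higher with chloroquine. It had 15.9 and 18.3 CPM untreated, 22 and 24.2 with chloroquine and 18.4 and 15.5 with melatonin. Chloroquine libraries were above all others, and the untreated and melatonin ranges coincided. The level was 1.35-fold higher with chloroquine, from 17.1 ± 1.69 to 23.1 ± 1.54 CPM (SD, n = 2), or 0.43 ± 0.10 (adjusted p = 0.00226), and stayed called at 0.34 to 0.54 when each library was left out. With melatonin the change was 0.00 ± 0.10 (adjusted p = 0.986), and it ran from -0.14 to 0.10 when each library was left out. With the GC offsets both values were higher, at 0.67 (adjusted p = 1.88e-05) with chloroquine and 0.39 with melatonin, where it then passed (adjusted p = 0.00234).

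FAS (ENSG00000026103, chromosome 10, 88990582 to 89015785), the death receptor that starts the extrinsic route of apoptosis, had 33.5 and 32.1 CPM untreated, 31.1 and 32.8 with chloroquine and 39.5 and 40.3 with melatonin. The melatonin libraries stood above the rest, and the other groups overlapped. The change was -0.04 ± 0.07 with chloroquine (adjusted p = 0.787) and 0.28 ± 0.07 with melatonin (adjusted p = 0.00156). The melatonin call was lost with the GC offsets, at 0.17 (adjusted p = 0.0531). ACTA2 shares 380 exon bases with FAS on the other strand (8.93% of them) and had 36 to 80 counts, against 547 to 967 for FAS.

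ZMAT3 (ENSG00000172667, chromosome 3, 179017223 to 179072279), a zinc finger protein that binds RNA and acts in splicing, was lower with both agents. It had 43.6 and 44.8 CPM untreated, 34.5 and 35.7 with chloroquine and 35.2 and 34.1 with melatonin. All 4 treated libraries were below both untreated ones, and the agents overlapped. It fell by 0.33 ± 0.07 with chloroquine (adjusted p = 0.000751) and by 0.35 ± 0.07 with melatonin (adjusted p = 9.99e-05), and the agents differed by 0.02 ± 0.07 (adjusted p = 0.878). With the GC offsets the changes were -0.45 and -0.58.

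RRM2B (ENSG00000048392, chromosome 8, 102204502 to 102239118) encodes p53R2, a small subunit of ribonucleotide reductase that supplies nucleotides for repair and for mitochondrial DNA. It had 57.3 and 60.4 CPM untreated, 57.5 and 62.4 with chloroquine and 106 and 107 with melatonin. The melatonin libraries were far above the other 4, which overlapped. From 58.8 ± 2.17 to 106 ± 1.12 CPM (SD, n = 2), it was 1.81-fold higher with melatonin, or 0.85 ± 0.05 (adjusted p = 8.64e-14). It was the only member that also passed a test against a 1.5-fold change, both with melatonin and between the agents. It has the lowest GC content of the members, 36.4%, and stood at 0.61 with the GC offsets (adjusted p = 2.55e-11). With chloroquine the change was 0.03 ± 0.05 (adjusted p = 0.799).

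FDXR (ENSG00000161513, chromosome 17, 74862497 to 74873031), the mitochondrial ferredoxin reductase that passes electrons to steroid and iron-sulphur cluster synthesis, had 16.4 and 18.9 CPM untreated, 10.3 and 13.5 with chloroquine and 14.6 and 12.5 with melatonin. All treated libraries were below the untreated ones, with the widest spread between replicates of any member in the chloroquine group relative to its mean. It fell by 0.57 ± 0.12 with chloroquine (adjusted p = 0.000877), a call that held at -0.78 to -0.39 when each library was left out and at -0.38 with the GC offsets. With melatonin it fell by 0.37 ± 0.12 (adjusted p = 0.00973), but the call was lost without untreated library 2 (-0.27), without melatonin library 2 (-0.28), with library totals (-0.27), by DESeq2 and with the GC offsets (-0.06, adjusted p = 0.726).

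Per kilobase of exon, the untreated levels ran from CDKN1A at 40.4 ± 0.82 CPM per kb (SD, n = 2) to TP53INP1 at 2.32 ± 0.0575. Between them came BTG2 (13.1), RRM2B (10.6), MDM2 (9.66), GDF15 (8.18), FAS (7.72), SESN1 (5), FDXR (4.9) and ZMAT3 (4.58). GDF15 and FAS, SESN1 and FDXR, and FDXR and ZMAT3 overlapped between libraries and are not ordered by these data. Length here is that of the merged exons of all annotated transcripts. For GDF15 this is 2087 bases, against 1200 in its longest transcript, and for FAS it is 4253 against 2563. The whole order therefore holds for this length only, and the transcripts in use were not determined.

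Log2 changes in these libraries depended on GC content, with a slope per 10% GC of -0.132 for chloroquine and -0.201 for melatonin over all tested genes with a known GC content. Offsets that take out this trend library by library, together with one on transcript length, moved the members in 2 directions. CDKN1A, FDXR and GDF15, with 58.1%, 61.8% and 62.9% GC, moved up, and the 6 members below 45% GC moved down, with BTG2 (50.3%) changing little. The falls of CDKN1A, BTG2, ZMAT3 and FDXR and the rise of GDF15 with chloroquine stayed called, as did RRM2B and ZMAT3 with melatonin. The cause of the trend was not tested.

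**Figure D4:**
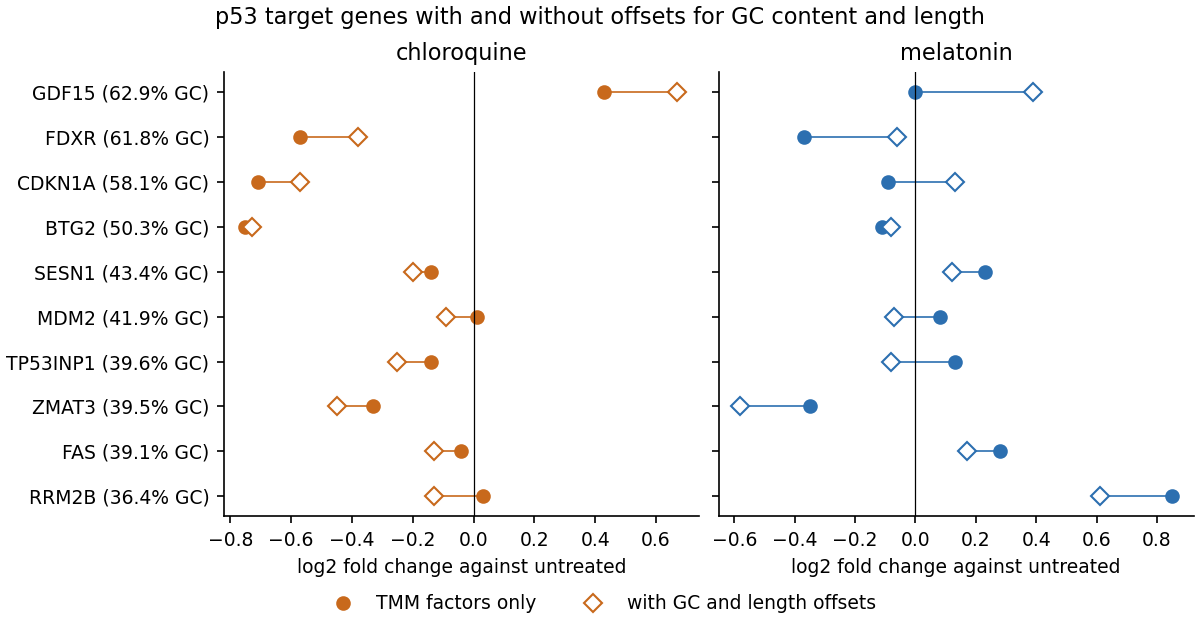
Log2 fold change of the members against untreated cells, ordered by GC content, with TMM factors only (filled) and with offsets for GC content and length (open). Members rich in GC shift to the right and members poor in GC to the left, by up to 0.39 for GDF15 with melatonin.

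The rest of the pathway was described from lists of regulators, arrest, apoptosis, repair, metabolism and secreted genes, 66 genes in all, of which 61 were tested. These lists were chosen with earlier results of these data known. PTP4A1, TP53AIP1, EDA2R, SCO2 and CX3CL1 did not pass the count filter. With chloroquine 5 rose, 16 fell and 40 were not called, with a median of -0.04. With melatonin 18 rose, 25 fell and 18 were not called, with a median of -0.02. These counts, and those of each list below, stand against 9.54% and 10.7% of all genes called as higher and lower with chloroquine. With melatonin the shares were 25.5% and 26.5%. The lists below hold few genes each, and their counts are a description only.

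Among 16 regulators, 3 rose and 2 fell with chloroquine, and 5 rose and 7 fell with melatonin. CDKN2A, which encodes the MDM2 antagonist ARF and the kinase inhibitor p16, fell by 0.32 with chloroquine (adjusted p = 4.81e-05), though with the GC offsets it was -0.11 and not called. With melatonin it fell by 1.00, from 111 and 120 CPM to 54.7 and 61.8 (adjusted p = 1.21e-14), and by 0.65 with the GC offsets. The checkpoint kinase ATR rose by 0.22 with chloroquine (adjusted p = 0.000226) and stood at 0.12 without a call with the GC offsets. RPL11, a ribosomal protein that binds MDM2, fell by 0.48 with melatonin (adjusted p = 2.02e-12).

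Among 7 tested arrest genes, 3 fell and 4 were not called with chloroquine, and 3 rose and 2 fell with melatonin. The polo-like kinase PLK2 fell by 0.44 with chloroquine (adjusted p = 4.97e-05), and TP53I11 fell by 0.53 (adjusted p = 0.00158), which without chloroquine library 2 was -0.38 and not called. GADD45A, a stress sensor that also answers to ATF4, stood at 13 and 11.8 CPM untreated, 12.7 and 12.6 with chloroquine and 33.6 and 30.5 with melatonin. Only the melatonin libraries were high, a rise of 1.38 ± 0.09 (adjusted p = 1.03e-12). SFN, the 14-3-3 sigma protein that holds cells in G2, fell by 0.98 with melatonin (adjusted p = 6.84e-16) and by 0.60 with the GC offsets.

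Among 18 tested apoptosis genes, 1 rose and 5 fell with chloroquine, and 3 rose and 10 fell with melatonin. PHLDA3, an inhibitor of AKT, fell by 0.59 with chloroquine (adjusted p = 8.17e-06), and the membrane protein gene PERP fell by 0.19 with chloroquine (adjusted p = 0.000166) and by 0.48 with melatonin. PMAIP1, which encodes the BH3-only protein NOXA, stood at 53.1 and 53.6 CPM untreated, 62.6 and 63.8 with chloroquine and 108 and 106 with melatonin. It was highest with melatonin, a rise of 1.00 ± 0.05 (adjusted p = 1.06e-15). STEAP3, a metalloreductase, was higher with chloroquine than with melatonin by 0.72 (adjusted p = 8.84e-11).

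Of 6 repair genes, 3 fell with chloroquine, and 1 rose and 4 fell with melatonin. DDB2, the sensor of ultraviolet damage, had 89.3 and 92.1 CPM untreated, 62.2 and 69.1 with chloroquine and 48.9 and 45.6 with melatonin. The 3 groups stood apart, with changes of -0.47 ± 0.06 (adjusted p = 4.31e-07) and -0.94 ± 0.06 (adjusted p = 1.34e-13). POLH, a translesion polymerase, fell by 0.23 with chloroquine (adjusted p = 0.0229), a call lost without untreated library 2 (-0.21), chloroquine library 1 (-0.20) or chloroquine library 2 (-0.25) and by DESeq2. PCNA, the sliding clamp of replication, fell by 0.49 with melatonin (adjusted p = 1.32e-11), and XPC, a damage sensor, was lower with chloroquine than with melatonin by -0.48 on the log2 scale (adjusted p = 4.82e-09).

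Among 9 tested metabolism genes, 1 rose and 1 fell with chloroquine, and 3 rose and 1 fell with melatonin. SAT1, which acetylates polyamines, rose by 0.36 with chloroquine (adjusted p = 1.1e-07) and 0.56 with melatonin (adjusted p = 2.3e-12). The glutathione peroxidase GPX1 fell by 0.45 with chloroquine (adjusted p = 0.000828), which was -0.30 without untreated library 2 and -0.19 with the GC offsets, both without a call. SESN2, the sestrin that ATF4 also induces, rose by 0.80 with melatonin (adjusted p = 4.03e-08), where SESN1 rose by 0.23.

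Of 5 tested secreted factors, 2 fell with chloroquine, and 3 rose and 1 fell with melatonin. IGFBP3, which binds insulin-like growth factors, had 428 and 294 CPM untreated, 262 and 306 with chloroquine and 73.7 and 76.5 with melatonin. It fell by 2.26 with melatonin (adjusted p = 1.26e-16), with no overlap between the groups. The chloroquine libraries overlapped the untreated ones, and the call at -0.34 (adjusted p = 0.0054) was lost without untreated library 1 (-0.05) or chloroquine library 1 (-0.24), by DESeq2 and with a robust dispersion. THBS1, a matrix protein that restrains vessel growth, rose by 1.52 with melatonin (adjusted p = 2.99e-15).

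A list of 9 genes, drawn up as shared with the integrated stress response, was set beside the others. It is not a set apart from p53, as SESN2 is also in the metabolism list, and its values do not tell a stress response from a p53 response. With chloroquine 5 rose and 1 fell, with a median of 0.25, and with melatonin 8 rose and 1 fell, with a median of 0.90. The shares of all genes called as higher and lower were 9.54% and 10.7% with chloroquine and 25.5% and 26.5% with melatonin. The list was chosen with earlier results of these data known, so its counts and medians are a description only. PPP1R15A, the phosphatase subunit GADD34, rose by 0.88 with chloroquine (adjusted p = 2.49e-10), and DDIT3, which encodes CHOP, rose by 1.61 (adjusted p = 4.21e-12). With melatonin these genes rose by 0.90 and 1.48, and neither was called between the agents (-0.01 and 0.13). The smallest p-values of the list with melatonin were those of ATF3, which rose by 1.44 (adjusted p = 2.11e-14), and CHAC1, which rose by 2.27 (adjusted p = 1.77e-12). Between the agents, 7 of the 9 were lower with chloroquine, against 23.1% of all genes, CHAC1 by -1.67 and ATF3 by -1.28 on the log2 scale.

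**Figure D5:**
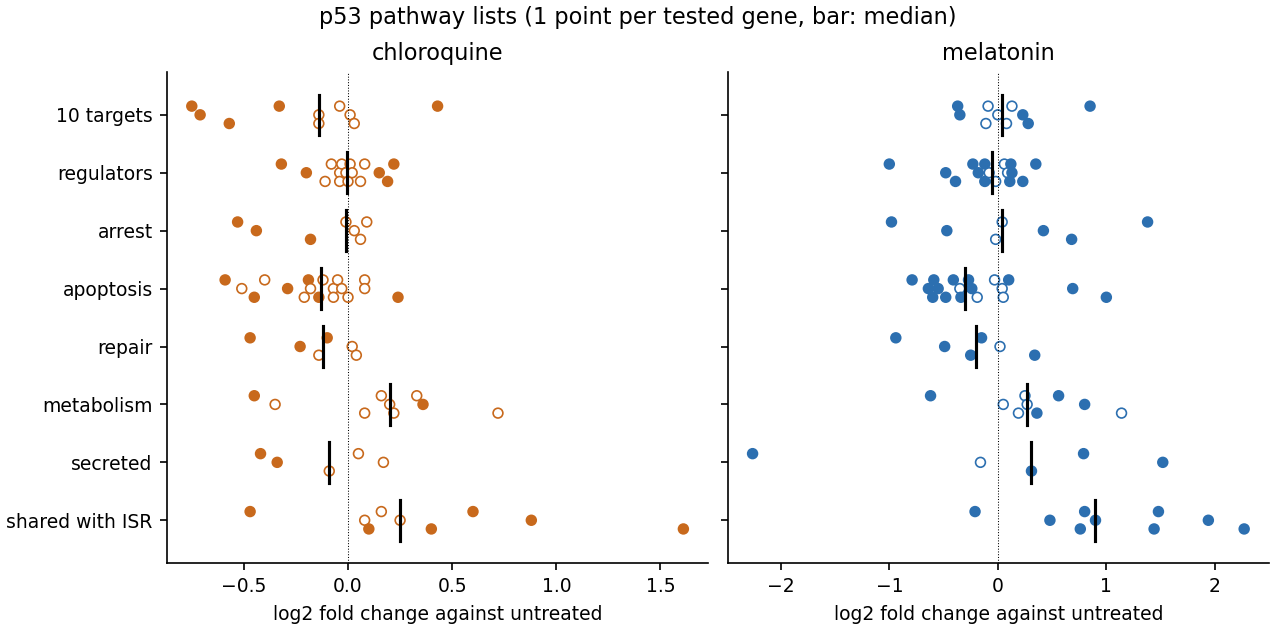
Log2 fold change against untreated cells of every tested gene in the p53 lists and in the stress response list (shared with ISR, integrated stress response). Filled points mark adjusted p under 0.05, and a black bar marks the median of each list. The stress response list, drawn up as genes shared with that response, has the highest median with melatonin, 0.90. The 10 targets have a median of 0.04. The lists do not tell a stress response from a p53 response. The lists were chosen with earlier results of these data known.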

How the data were processed

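Polyadenylated RNA of 6 libraries was analysed from the deposited table of integer read counts per Ensembl gene. Reads were processed with fastp and GRCh38 is the build, per the submitters' processing notes. The sources used here give no aligner, annotation release or strand setting. Symbols were found for 62639 of 62710 genes, and 58274 were placed by GENCODE release 29.

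Counts were fitted in R 4.3.3 with edgeR 4.0.16 (filterByExpr, TMM factors, glmQLFit and glmQLFTest, 1 term per group, all 6 libraries), with Benjamini-Hochberg adjustment over 16877 genes. Residual and prior degrees of freedom were 3 and 23.6. SE were taken from the F statistic. GC offsets were local regressions (span 0.3) on 12627 genes, and GC content was known for 96.6% of tested genes. The main test of each agent against untreated cells was also run on simulated counts with 200 changed genes. The GC offsets, the comparison between the agents, the alternative tests, the likeness ranking and the motif search were not run on simulated data. Libraries of a group differed by more than counting noise, with chi-square values of 1.82 to 2.61 per degree of freedom. Alternatives used limma 3.58.1 and DESeq2 1.42.0.

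The members and lists were chosen with earlier results of these data known. All members were named, as were the 2 genes with the smallest p of each list and comparison, and the 5 genes nearest to CDKN1A among tested genes whose log2 CPM averaged 2 or more. Promoter windows were those of RefSeq. Some genes that this rule names are not reported here.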

Additional observations from a re-analysis of the deposited data

How the results depend on the processing

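Against 3413 genes called with chloroquine, DESeq2 called 2025, a test against a 1.5-fold change 47, GC and length offsets 1823, and the offsets with the replicate block 1867. Leaving out each library gave 1974 to 3732 (2249 without chloroquine library 1 and 1974 without chloroquine library 2). The number of members called stayed at 5 in each of these omissions. The other listed genes are here the 69 tested genes of all other lists, with the stress response list among them, and not only the 61 counted above. The test against a 1.5-fold change in edgeR called 0 of the 10 members with chloroquine (2 at an unadjusted p under 0.05), and 2 of the other listed genes, against 27 in the main test and 17 by DESeq2. With melatonin it called 1197 of 8782 genes, 1 member and 15 of 51 other listed genes, and DESeq2 called 3 members. Between the agents it called 755 of 7933 genes, 1 of 7 members and 10 of 45 other listed genes. Without each library, 20 to 29 other listed genes were called with chloroquine. With melatonin the ranges were 7570 to 8666 genes, 4 to 5 members and 43 to 49 other listed genes. Between the agents they were 6375 to 8076, 6 to 7 and 38 to 46.

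Members that turned in sign were near 0 in the main test. With chloroquine, MDM2 was -0.09 with the offsets, -0.09 with offsets and block and -0.01 without chloroquine library 1, in a range of -0.01 to 0.03 over the libraries left out. RRM2B was -0.13, -0.13, -0.01 without untreated library 1 and -0.03 without chloroquine library 2, in a range of -0.03 to 0.08. With melatonin, CDKN1A was 0.01 with library totals and 0.13 with the offsets, without and with the block. MDM2 was -0.07 and -0.08 and TP53INP1 -0.08 and -0.08. Between the agents, ZMAT3 was -0.01 with upper-quartile factors and -0.07 with library totals. The cause was not tested. Of 570 values of the members, 507 kept their side of the threshold and were not counted as turned in sign. A value that rounds to 0.00 was given no sign, which holds for GDF15 with melatonin in the main test. That change ran from -0.14 to 0.10 over the libraries left out and was 0.39 with the offsets.

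Replicate numbers did not pair the libraries (correlations of deviations -0.0168, -0.00876 and -0.0405). With the replicate number as a block, 3436, 8731 and 7878 genes and 5, 5 and 7 members were called with chloroquine, with melatonin and between the agents, and no call of a member or named gene changed. Library totals lay between 15993730 and 23311452, and the SE of the members' log2 changes between 0.04 and 0.12.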
